A study of Mus musculus with 6 samples.

Results

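The cytosolic ribosomal protein genes are the protein-coding genes whose symbols begin with Rpl or Rps and a digit, together with the stalk genes Rplp0, Rplp1 and Rplp2, without the Rps6k kinases and without symbols that contain -ps. The deposited table held 83 of these genes among 24080 genes, 50 of the large ribosomal subunit and 33 of the small subunit. The annotation held 85 such genes, and Rpl10l and Rpl39l had no row in the table. The rule uses names and no measured value. It also draws Rps19bp1, which is named after a binding partner of a ribosomal protein and is not itself part of the ribosome.

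The study measured total RNA in a mouse endothelial cell line derived from embryonic stem cells that carry a homozygous null mutation of the gene for VE-cadherin (VEC), the adhesion protein of endothelial junctions. The 3 VEC-null libraries came from this line, and the 3 VEC-positive libraries came from the same line after retroviral transfer of wild-type VEC, so both groups share the null mutation and only 1 carries the transferred VEC. Both are cell lines. The study calls the libraries of a group biological replicates, without saying in the sources used here whether they came from separate cultures, so p-values measure the spread between these libraries only. The libraries held 6036155 to 14136376 recovered reads. The values compared here are normalized counts, in which the reads of a gene are divided by a size factor that is the same for all genes of a library. The spread between libraries was larger than counting error in all pairs, and VEC-null 3 stood apart, since the chi-square of its counts, averaged over genes, was 50.5 against VEC-null 1 and 48.6 against VEC-null 2, where VEC-null 1 and VEC-null 2 gave 6.57. Cdh5, the gene of VE-cadherin, went against the labels, at 1334, 1439 and 1689 normalized counts in the libraries labelled VEC-null and at 794, 739 and 750 in the libraries labelled VEC-positive, while Cldn5, a tight junction gene of endothelial cells, was at 9.18, 5.51 and 4.43 under the VEC-null label and at 429, 512 and 434 under the VEC-positive label. The study reports that VEC raised the expression of claudin-5, which is the direction of Cldn5 between these labels. Counts of Cdh5 RNA do not measure the VEC protein, and why they went against the labels was not tested. Every direction below is a direction between labels. Of 10 endothelial markers, 7 were higher in VEC-positive libraries and Cdh5 was lower in the expression test below. In that test 20.9% of all tested genes were higher and 16.4% lower. The 3 blood markers with a row summed to 10.5 to 37.2 and the 2 pluripotency markers with a row to 0 to 11.3 normalized counts per library. The 6 fibroblast and mural markers summed to 81.6 to 202 in VEC-null and 236 to 280 in VEC-positive libraries, and of the 4 tested Pdgfrb was higher, at 0 to 1.77 against 95.6 to 118. The part of these markers in the results below was not tested.

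A ribosome joins a small subunit, which binds the messenger RNA and reads its codons, with a large subunit, which forms the peptide bonds. Ribosomal proteins coat the ribosomal RNA that does most of this work, and a subunit needs nearly all of its proteins in fixed proportion. Messenger RNAs of ribosomal proteins typically begin with a run of the pyrimidines C and T, the terminal oligopyrimidine tract, through which mTORC1 and the protein LARP1 control their translation. Ribosomal proteins that are not built into ribosomes are usually degraded, and a complex of Rpl5, Rpl11 and ribosomal RNA can instead bind Mdm2 and stabilise p53.

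The letters around the start sites of ribosomal protein genes were examined because this tract is the sequence feature the family shares. In the RefSeq promoter sequences of build GRCm38.p6, 63 of the 83 genes were matched by symbol. The longest unbroken run of C or T was sought on the transcribed strand only, from 20 bases before to 50 bases after the annotated start, and no other motif was searched. Where a gene had several starts in these sequences, the longest run over all of them was taken. The number of starts per gene was not adjusted for. A run of at least 8 bases was found in 49 of the 63 genes (77.78%), against 28.51% of all 27025 genes in the same table and 26.09% of 69 genes for mitochondrial ribosomal proteins. The median longest run was 10 bases in the ribosomal protein genes and 6 bases in both other groups. A run of letters is a description of this window and is not in itself a measured tract. Counted with the annotated start as base 1, the run began at base 30 in Rpl9, -4 in Rpl15, 2 in Rpl22l1 and 40 in Rpl12. It began at base 9 in Rps12, 26 in Rps15 and 35 in Rps21, so several runs lie well after the start. Of the genes that passed the expression test below, 4 of 8 in the large and 3 of 5 in the small subunit held such a run. Genes without a matched sequence counted here as lacking it. Windows of 30 bases are shown for these 7 genes, which both passed the expression test below and held such a run. The longest run is in capitals, and all are on the transcribed strand.
Rpl9 (chr5:65391383-65391412, minus strand): acgaaagacgTTCTCTCTTTgccccatcta
Rpl15 (chr14:18270968-18270997, minus strand): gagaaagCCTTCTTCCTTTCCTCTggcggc
Rpl22l1 (chr3:28805499-28805528, plus strand): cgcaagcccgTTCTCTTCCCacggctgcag
Rpl12 (chr2:32961732-32961761, plus strand): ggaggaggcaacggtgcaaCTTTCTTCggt
Rps12 (chr10:23787182-23787211, minus strand): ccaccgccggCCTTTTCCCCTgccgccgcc
Rps15 (chr10:80292446-80292475, plus strand): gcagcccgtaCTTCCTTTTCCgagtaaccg
Rps21 (chr2:180257399-180257428, plus strand): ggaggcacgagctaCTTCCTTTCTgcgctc

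Most ribosomal protein genes differed little between VEC-null and VEC-positive libraries, in which fewer cells of a type and less RNA per cell cannot be told apart. Of the 83 genes, 82 had 3 or more libraries with a normalized count of 10 or more and were tested with all 14032 such genes in limma with Benjamini-Hochberg adjustment over all of them. At an adjusted p of 0.05, 6 genes were higher in VEC-positive libraries (7.32%), 7 were lower (8.54%) and 69 did not pass, where 20.9% of all tested genes were higher and 16.4% were lower. Both directions together came to 15.9% of the ribosomal protein genes against 37.3% of all tested genes. This difference depended on the scaling, since with libraries scaled to equal totals 47.6% of the ribosomal protein genes and 46.5% of all tested genes passed, most of them lower. The groups did not overlap in 23 of the 82 genes (28.0%), against 50% of all tested genes. With the deposited scaling none of the 82 changed by 2-fold or more, where 2307 of all 14032 tested genes did. At equal totals Rps12 went beyond 2-fold, with a log2 fold change of -1.02. The median size of the log2 fold change in either direction was 0.17 for the ribosomal protein genes and 0.39 for all tested genes, while the median standard deviation within groups was 0.168 and 0.188 on the log2 scale. Of 77 tested genes for the ribosome that works inside mitochondria, 1 was higher and 5 were lower (7.79% called).

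**Figure D1:**
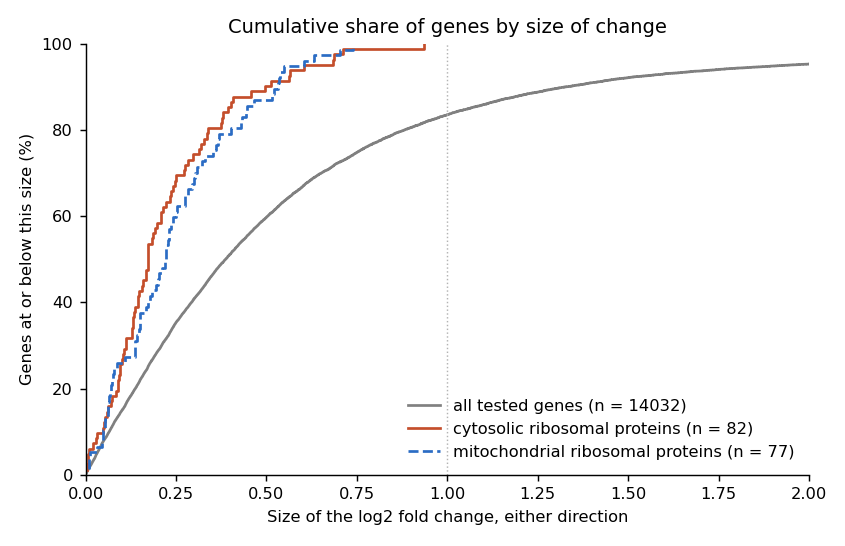
Cumulative share of genes (vertical axis, %) whose log2 fold change between VEC-positive and VEC-null is at or below a given size in either direction (horizontal axis, shown up to 2), for the 82 cytosolic and 77 mitochondrial ribosomal protein genes and all 14032 tested genes. The curve of the cytosolic genes reaches 90.2% at a size of 0.5 and ends below 1, the dotted line at 2-fold, where 59.8% of all tested genes lie below 0.5.

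Both subunits had calls in both directions. The large subunit had 4 genes higher, 4 lower and 41 that did not pass (16.3% called), with a median log2 fold change of -0.01 and a range from -0.60 to 0.93. The small subunit had 2 higher, 3 lower and 28 that did not pass (15.2% called), with a median of -0.05 and a range from -0.71 to 0.56. Reads on large subunit genes were 2.17, 2.12 and 2.15 times those on small subunit genes in VEC-null 1, 2 and 3, and 2.21, 2.22 and 2.13 times in VEC-positive 1, 2 and 3, so the groups overlap. Without the paralogs and Rps19bp1, 4 of 76 genes were higher and 7 were lower.

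A call that failed does not show equal levels. The 95% interval of the log2 fold change lay within 2-fold in either direction for 67 of the 69 genes that did not pass, the exceptions being Rpl24 (-0.72 to 1.28) and Rps19bp1 (-0.02 to 1.144), and within 1.5-fold for 57. At an unadjusted p of 0.05, 24 of the 82 genes would have passed in limma.

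**Figure D2:**
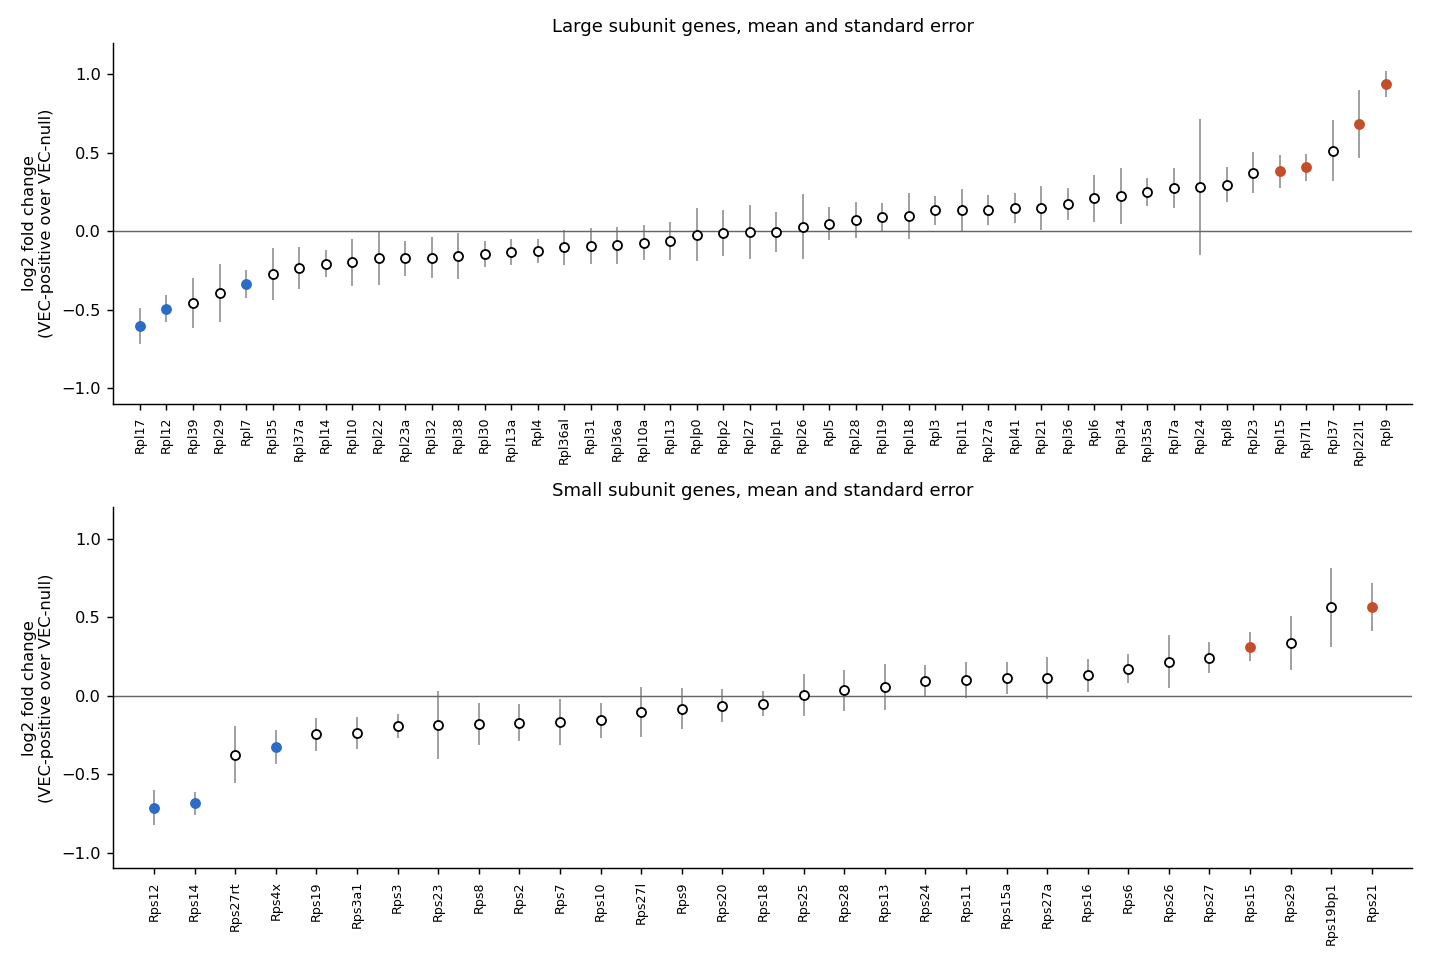
Log2 fold change between groups, positive where VEC-positive is higher, (vertical axis) for 48 large subunit genes (top) and 31 small subunit genes (bottom), sorted by value, with bars of 1 standard error. Filled points passed an adjusted p of 0.05 (red higher, blue lower), and open points did not. Most open points lie within 0.5 of 0 in both subunits, and Rpl9 is highest and Rps12 lowest.

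Rpl9, a large subunit protein near the base of the stalk, had the largest rise. Its gene (ENSMUSG00000047215, chromosome 5, 65388364 to 65391444, minus strand, mm10) was at 2206, 1912 and 2074 normalized counts in VEC-null 1, 2 and 3 and at 3683, 4043 and 4103 in VEC-positive 1, 2 and 3. All VEC-positive libraries lay far above all VEC-null libraries. The means were 2064 ± 147 and 3943 ± 227 (SD, n = 3 each), a 1.91-fold rise with a log2 fold change of 0.93 ± 0.08 (SE) and a limma adjusted p of 8.73e-05. Its call held in each of 19 alternative analyses, and the log2 fold change was 0.62 with libraries scaled to equal totals.

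Rps12 and Rps14 had the largest falls. Rps12 (ENSMUSG00000061983, chromosome 10, 23785183 to 23787275, minus strand), a protein of the small subunit's beak, was at 1594, 1325 and 1374 in VEC-null and 814, 1002 and 807 in VEC-positive libraries. It fell by 0.71 ± 0.11 (SE) on the log2 scale with a limma adjusted p of 0.0017. Rps14 (ENSMUSG00000024608, chromosome 18, 60747098 to 60778546, plus strand), a protein of the platform on which messenger RNA leaves the small subunit, was at 2424, 2556 and 2534 in VEC-null and 1459, 1552 and 1662 in VEC-positive libraries. It fell by 0.69 ± 0.07 (SE) on the log2 scale, with a limma adjusted p of 0.000247. The groups do not overlap in either gene.

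Rpl17 and Rpl12 fell in the large subunit. Rpl17 (ENSMUSG00000062328, chromosome 18, 74998558 to 75003381, plus strand) sits at the rim of the tunnel through which the nascent protein leaves, and was at 7860, 7057 and 7549 in VEC-null and 4487, 5830 and 4560 in VEC-positive libraries. It fell by 0.60 ± 0.11 (SE) on the log2 scale, limma adjusted p = 0.00408. Rpl12 (ENSMUSG00000038900, chromosome 2, 32961559 to 32965345, plus strand), which binds at the base of the stalk that recruits translation factors, was at 2060, 1804 and 1961 in VEC-null and 1297, 1495 and 1342 in VEC-positive libraries. It fell by 0.49 ± 0.09 (SE) on the log2 scale with a limma adjusted p of 0.00267. Every VEC-positive library lay below every VEC-null library in both genes, and, as for Rpl9, Rps12 and Rps14, both calls held in each of 19 alternatives.

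The other calls were smaller or less stable. Rpl7l1, a paralog of Rpl7 found in nucleoli, was at 979, 823 and 880 in VEC-null and 1166, 1230 and 1152 in VEC-positive libraries, with a log2 fold change of 0.41 ± 0.08 (SE), limma adjusted p = 0.00673. Its call was lost in 1 of 19 alternatives, where scaling to equal totals took the value to 0.10.

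Rpl7 itself was at 6087, 5694 and 6712 in VEC-null and 4591, 5102 and 4948 in VEC-positive libraries, and fell by 0.34 ± 0.09 (SE) on the log2 scale with a limma adjusted p of 0.0183. Leaving out VEC-positive 1 or VEC-positive 3 gave limma adjusted p-values of 0.0872 and 0.0552. Rps4x, a small subunit protein encoded on the X chromosome, was at 2598, 2907 and 3398 in VEC-null and 2200, 2346 and 2518 in VEC-positive libraries. It fell by 0.33 ± 0.11 (SE) on the log2 scale with a limma adjusted p of 0.0456. Without VEC-null 2 or VEC-positive 1, 2 or 3 its limma adjusted p was 0.0962, 0.16, 0.123 and 0.0665. Both genes had groups that do not overlap.

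Rps21 was at 1094, 835 and 704 in VEC-null and 1228, 1416 and 1196 in VEC-positive libraries, a rise of 0.56 ± 0.16 (SE) on the log2 scale with a limma adjusted p of 0.0227. The lowest VEC-positive and the highest VEC-null library lay close together. Without VEC-null 2, VEC-positive 1 or VEC-positive 2 its limma adjusted p was 0.0707, 0.0622 and 0.0888. Rpl15 was at 1876, 1840 and 2265 in VEC-null and 2514, 2831 and 2427 in VEC-positive libraries, a rise of 0.38 ± 0.10 (SE), limma adjusted p = 0.0212. Leaving out VEC-null 1, VEC-null 2, VEC-positive 1 or VEC-positive 2 gave 0.0668, 0.0745, 0.0606 and 0.0889 for the limma adjusted p of Rpl15. At equal totals neither passed, with log2 fold changes of 0.25 for Rps21 (limma adjusted p = 0.205) and 0.07 for Rpl15 (limma adjusted p = 0.557).

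Rps15, whose tail reaches the decoding site, was at 1227, 1356 and 1380 in VEC-null and 1515, 1602 and 1812 in VEC-positive libraries, a rise of 0.31 ± 0.09 (SE), limma adjusted p = 0.0276. Without VEC-null 1, VEC-null 2, VEC-positive 2 or VEC-positive 3 the limma adjusted p of Rps15 was 0.0845, 0.0572, 0.073 and 0.0992. At equal totals its log2 fold change was 0.0013. Rpl22l1, a paralog of Rpl22, was at 122, 81.9 and 149 in VEC-null and 170, 206 and 178 in VEC-positive libraries, a rise of 0.68 ± 0.22 (SE), limma adjusted p = 0.0386. It no longer passed without VEC-null 1, VEC-null 2 or any of VEC-positive 1, 2 and 3, where the limma adjusted p was 0.0649, 0.0764, 0.082, 0.134 and 0.0917, nor at equal totals, where its log2 fold change was 0.37 and its limma adjusted p 0.167. Of the 13 calls, that of Rpl22l1 was lost in the most alternatives, 9 of 19.

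**Figure D3:**
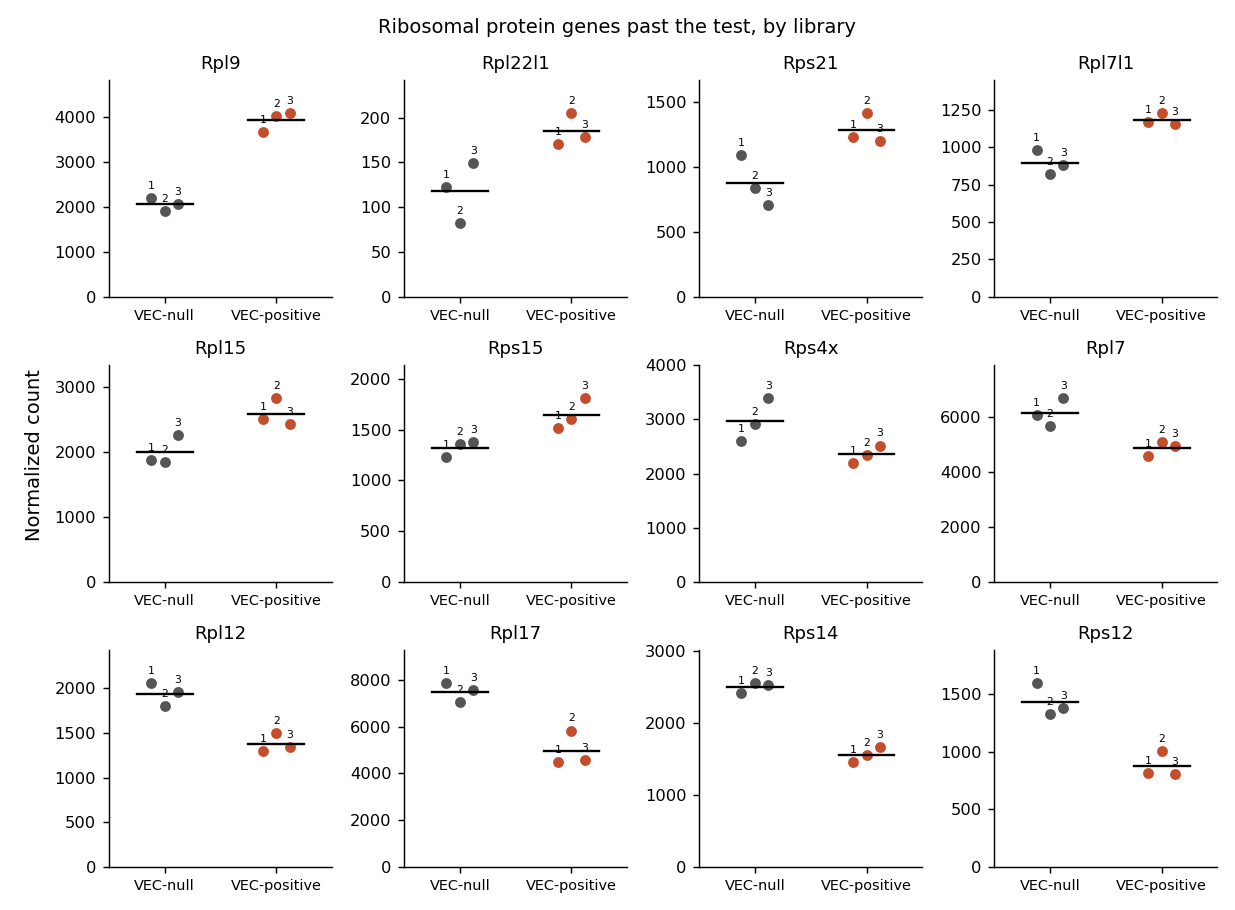
Normalized count (vertical axis from 0, own scale in each panel) of 12 ribosomal protein genes past the test in each of 3 VEC-null libraries (grey) and 3 VEC-positive libraries (red), sorted from the largest rise to the largest fall; numbers give the replicate and lines the mean. No panel has overlapping groups, the gap is widest for Rpl9, and in Rps21 VEC-null 1 at 1094 lies next to VEC-positive 3 at 1196.

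Groups of ribosomal proteins that work together were read from the same fit. In that fit 37.3% of all tested genes passed, 20.9% higher and 16.4% lower. The stalk proteins, which recruit elongation factors, gave 0 calls of 3 in limma, also at an unadjusted p of 0.05, and 0 in edgeR and in DESeq2, with values that overlap throughout. Rplp0 was at 2257, 2260 and 3434 in VEC-null and 2486, 2856 and 2359 in VEC-positive libraries (log2 fold change -0.02). Rplp1 was at 4632, 3882 and 5063 against 3892, 4923 and 4708 (-0.00), and Rplp2 at 2014, 2422 and 3007 against 2185, 2642 and 2488 (-0.01). For the partners of the complex that can bind Mdm2, Rpl5 was at 13128, 12024 and 14666 against 13663, 14788 and 12656 (log2 fold change 0.05, limma adjusted p = 0.752). Rpl11 was at 1024, 998 and 833 against 933, 1255 and 963 (0.13, limma adjusted p = 0.459). Around the exit tunnel 1 of 8 genes passed, Rpl17, and the median log2 fold change was -0.15. Of 7 genes of the small subunit's messenger RNA path, Rps15 was higher and Rps14 was lower, with a median of -0.17. Of 18 genes mutated in Diamond-Blackfan anaemia, a red cell failure caused by ribosomal protein loss, 1 passed, Rpl15, and the median was 0.04.

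Genes with the highest mean normalized counts did not pass either. In the large subunit these were Rpl5, Rpl26 (9200, 8276 and 14726 in VEC-null, 9905, 12126 and 9924 in VEC-positive libraries) and Rpl13a (9020, 7940 and 8495 against 7386, 8094 and 7725). In the small subunit they included Rps6 (9972, 8762 and 9607 against 10129, 11594 and 10231), whose protein is the target of S6 kinase, and Rps23 (4269, 3775 and 6822 against 3841, 5050 and 3855). VEC-null 3 was the highest library for Rpl26 and Rps23 by a wide margin. Over all 82 genes it was the highest library in 27 and VEC-positive 2 in 30, while VEC-positive 1 was the lowest in 27 and the highest in 0.

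Per kilobase of annotated exon, levels differed far more between ribosomal protein genes than between groups. The length used counts every base in an exon of any annotated transcript, such as 499 for Rplp1 and 3920 for Rpl5. It can exceed the length of the messenger RNA, so differences between genes partly depend on the annotation. The median gene was at 767 normalized counts per kilobase over all 6 libraries, with quartiles of 351 and 1814, and 64 of 83 genes lay within 4-fold of the median. Rplp1 was highest at 9051 per kilobase, followed by Rpl26 at 7405 and Rps6 at 6336. At the low end were Rpl24 at 28.7 and Rpl3l at 3.46. No source used here names the annotation that was counted, and 47% of the exon bases of Rpl24 also belong to the overlapping gene Gm28037 in GENCODE M21. In all, 38 genes shared exon bases with another gene and 9 shared at least 20%. None of the 13 genes past the test was among those 9.

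Paralogs of ribosomal proteins were set against their partners in each library, and the ratios of Rpl7l1 and Rpl22l1 did not overlap between groups. The 5 pairs tested could not go below a p of 0.1 in the exact two-sided permutation test, the smallest that 3 libraries against 3 allow. Rpl7l1 was 16.1, 14.5 and 13.1% of Rpl7 in VEC-null libraries and 25.4, 24.1 and 23.3% in VEC-positive libraries, a difference of 0.74 in the log2 ratio (exact p = 0.1, adjusted 0.167). Rpl22l1 was 26.6, 20.1 and 51.4% of Rpl22 in VEC-null libraries and 54.6, 56.7 and 52.8% in VEC-positive libraries, a difference of 0.86 (exact p = 0.1, adjusted 0.167), and VEC-null 3 lay next to the VEC-positive libraries. The difference for Rpl22l1 was 0.56 without VEC-null 2 and 1.24 without VEC-null 3. Rpl22 was at 462, 411 and 291 in VEC-null and 313, 363 and 339 in VEC-positive libraries, and did not pass with all libraries (log2 fold change -0.17, limma adjusted p = 0.452). Rpl36al was 39.95, 39.3 and 47.2% of Rpl36a against 40.1, 44.4 and 40.7% (difference -0.01, exact p = 1.0). Rps27l was 8.86, 7.01 and 8.32% of Rps27 against 6.21, 5.53 and 7.33% (difference -0.35, exact p = 0.2, adjusted 0.25). Rps27rt, a retrotransposed copy of Rps27, was at 81.1, 83.5 and 71.8 against 61.8, 50.7 and 70.2 (limma adjusted p = 0.143).

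The widest difference of a paralog was in Rps4l, a copy of Rps4x that the annotation types as a transcribed processed pseudogene and that is therefore not among the 83 genes. VEC-null libraries held 49, 68 and 57 reads of it, where VEC-positive libraries held 0, 1 and 0, or 74.97, 53.6 and 50.5 against 0, 0.974 and 0 normalized counts. Scaled to size, VEC-null libraries held 178 times as much, with a 95% counting interval of 31.5 to 7070 from 174 reads against 1 that covers counting error only. As a share of Rps4x it fell from 2.92, 1.88 and 1.52% to 0.045, 0.084 and 0.040%, values that carry the pseudocount (exact p = 0.1, adjusted 0.167). The limma adjusted p for Rps4l was 5.2e-05. Rpl3l, the muscle paralog of Rpl3, lay below the filter and was not tested in the main fit. Its read numbers were 1, 4 and 1 in VEC-null against 6, 8 and 17 in VEC-positive libraries. In 1 of 19 alternatives, the fit without the filter, it passed as higher. Rps19bp1 was at 44.4, 50.4 and 58.5 against 60.7, 108 and 65.4 (limma adjusted p = 0.119).

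Ribosomal protein genes have many processed pseudogenes, intronless copies whose reads can be hard to assign, and these copies divided the libraries in another way than the genes did. Of 3479 annotated pseudogenes searched, 851 matched a ribosomal protein transcript at 85% identity or more over at least 60% of the copy, and 80 of the 83 genes had at least 1 copy. The copies held 33.5, 33.7 and 21.3% of the normalized counts of genes plus copies in VEC-null 1, 2 and 3, and in the libraries VEC-positive 1, 2 and 3 the share was 25.4, 22.6 and 27.2%. VEC-null 1 and VEC-null 2 thus lay above all others, and VEC-null 3 lay below all VEC-positive libraries. Among 63 genes whose copies summed to a mean of at least 50, VEC-null 1 and VEC-null 2 were both above the other 4 libraries in 52. The groups did not overlap in 11 of these 63 copy sums, against 50% of all tested genes. In 10 of the 11 the copies were lower in VEC-positive libraries. No source used here says how reads that fit a gene and its copies equally well were counted, so a read of a gene can stand in a copy and the reverse.

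**Figure D4:**
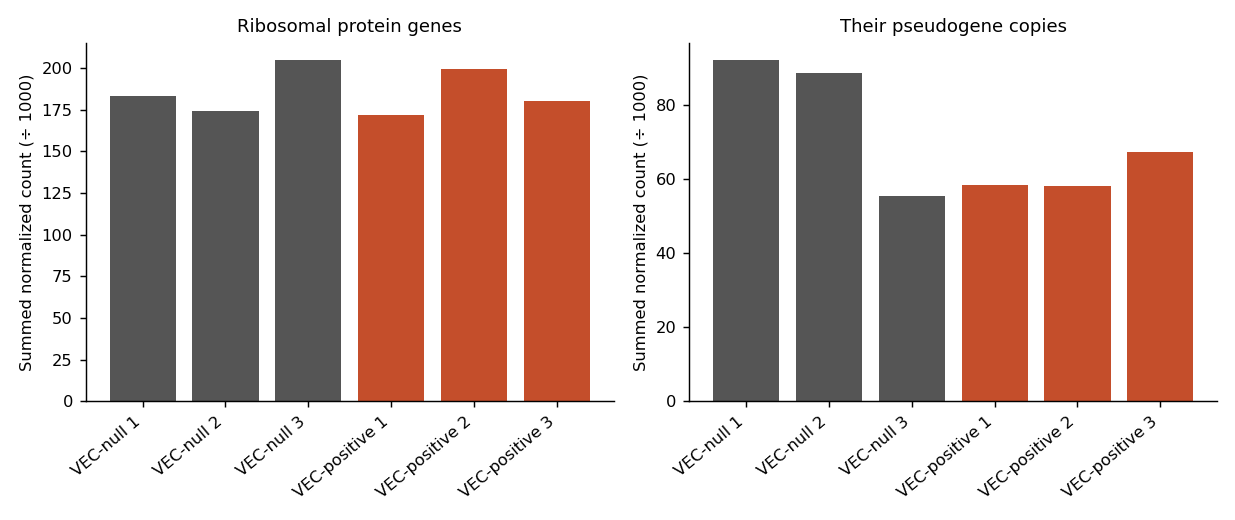
Summed normalized count, divided by 1000 (vertical axes from 0), of the 83 ribosomal protein genes (left) and of their 851 pseudogene copies (right) in each library, VEC-null in grey and VEC-positive in red. The gene sums overlap between groups, while the copies are highest in VEC-null 1 and 2, with VEC-null 3 beside the VEC-positive libraries.

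Adding each gene's copies to the gene, an analysis chosen after the data were seen, kept all 13 calls with their direction and added 6 more, all lower in VEC-positive libraries. The large subunit then had 4 genes higher and 7 lower, and the small subunit 2 higher and 6 lower, where 20.9% of all tested genes were higher and 16.5% lower in the same fit. The added genes, named after their values were seen, included Rps19, Rpl13, Rpl14, Rpl10 and Rps2. The log2 fold change of Rps19 went from -0.25 to -0.55 with copies (limma adjusted p = 0.00773) and that of Rpl13 from -0.06 to -0.34 (limma adjusted p = 0.00955). Copies made up 51.9% of the sum for Rpl12 and 56.7% for Rpl15, and their log2 fold changes with copies were -0.85 and 0.35. For Rpl9, Rps14 and Rpl17 the copies were 13.1, 6.23 and 36.8% of the sum, and the log2 fold changes with copies were 0.83, -0.69 and -0.80. Values of genes with large shares in copies, such as Rpl24 (95.4%) and Rpl29 (68.5%), are uncertain.

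**Figure D5:**
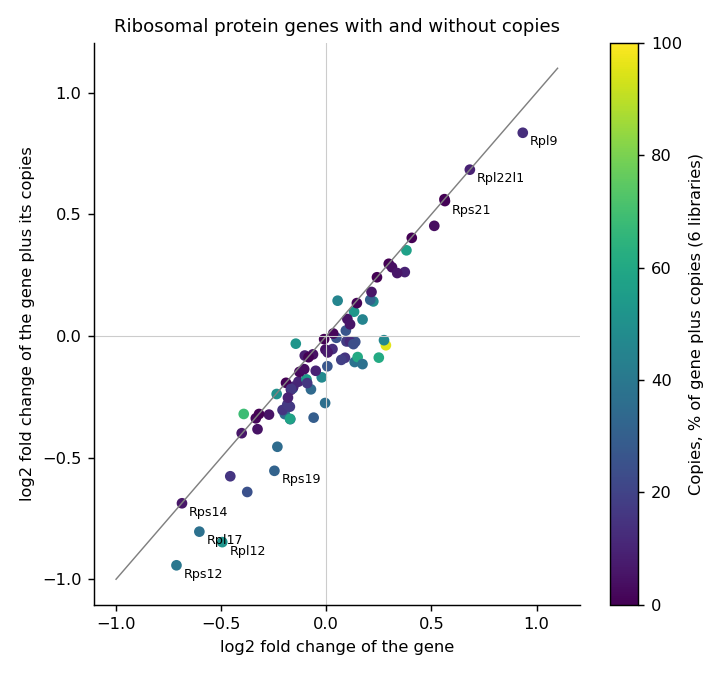
Log2 fold change between groups, positive where VEC-positive is higher, for each of 82 ribosomal protein genes alone (horizontal axis) and with its pseudogene copies added (vertical axis), coloured by the share of copies in the sum over 6 libraries; the line marks equal values, and genes that passed with copies and whose log2 fold change with copies is larger than 0.45 in either direction are named. Of 35 genes with a share above 20%, 32 lie below the line, and Rpl12 moves from -0.49 to -0.85.

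The scaling of libraries moved all genes together, ribosomal protein genes included. With libraries scaled to equal totals, the median log2 fold change of all tested genes went from -0.01 to -0.32, and that of the ribosomal protein genes from -0.01 to -0.32 as well, so their position against other genes stayed the same. Under that scaling 1 gene was higher (1.22%) and 38 were lower (46.3%), against 11.2% and 35.3% of all tested genes. Reads of the mitochondrial genome were 9.62, 11.6 and 14.9% of VEC-null and 17.97, 24.2 and 22.5% of VEC-positive libraries, and their part in the lower totals of other genes was not tested. Of all reads, ribosomal protein genes took 1.99, 1.90 and 2.18% in VEC-null and 1.53, 1.67 and 1.58% in VEC-positive libraries, groups that do not overlap. The widest 95% Wilson interval of these shares, that of VEC-null 1, ran from 1.974 to 1.997% and covers counting error only. Of reads outside the mitochondrial genome they took 2.20, 2.15 and 2.57% in VEC-null and 1.87, 2.21 and 2.04% in VEC-positive libraries, groups that overlap.

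Without VEC-null 3, the library that stood apart, more genes passed. The large subunit then had 10 genes higher and 8 lower and the small subunit 3 higher and 5 lower, 15.9% of the ribosomal protein genes in each direction, against 27.1% higher and 23.9% lower among all tested genes. Genes that passed then and not with all 6 libraries, named after their values were seen, included Rpl7a (log2 fold change 0.41), Rpl8 (0.39) and Rpl6 (0.37) on the higher side and Rpl39 (-0.63), Rpl29 (-0.61) and Rpl22 (-0.37) on the lower side.

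A few proteins of the ribosome carry other names, and 2 of 4 such genes fell, where 16.4% of all tested genes were lower. Rpsa, a small subunit protein that is also known as the laminin receptor, was at 10470, 11219 and 9887 in VEC-null and 5300, 5441 and 5653 in VEC-positive libraries, with a log2 fold change of -0.94 ± 0.08 (SE), limma adjusted p = 7.11e-05. Rack1, a scaffold on the head of the small subunit, was at 2503, 2676 and 2319 against 1772, 1824 and 1902 (log2 fold change -0.45, limma adjusted p = 0.00278). Fau was at 2942, 3580 and 5236 against 5063, 5827 and 4642 (limma adjusted p = 0.119). Rpsa and Rack1 were called under all 19 alternatives.

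Of 16 other genes whose messenger RNAs carry the pyrimidine tract, 8 were higher and 2 were lower (62.5% called, against 37.3% of all tested genes), with a median log2 fold change of 0.22. With libraries scaled to equal totals 0 were higher and 6 of 16 were lower, against 11.2% and 35.3% of all tested genes. The median was then -0.09, where that of all tested genes went from -0.01 to -0.32. Eef2, the elongation factor that moves the ribosome along the messenger RNA, was at 14471, 15215 and 18483 in VEC-null and 24531, 23715 and 22446 in VEC-positive libraries (0.56, limma adjusted p = 0.00633). Tpt1 was at 19092, 17566 and 23913 against 27821, 32758 and 27012 (0.54, limma adjusted p = 0.0191), and Eif3e rose by 0.48. In the other direction Eef1b2, which recharges elongation factor 1A, was at 5462, 4823 and 5178 against 3639, 3679 and 3539 (-0.51, limma adjusted p = 0.00116). The 2 of this list with the highest means that did not pass, Eef1a1 and Pabpc1, had log2 fold changes of -0.07 and -0.18. The difference in calls between this list and the ribosomal protein genes was not tested.

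Genes that build ribosomes had calls in both directions. Of 43 tested genes for assembly and ribosomal RNA processing, 4 were higher and 8 were lower (27.9% called, against 37.3% of all tested genes), with a median log2 fold change of -0.06. At equal totals 1 was higher and 20 were lower, where 11.2% of all tested genes were higher and 35.3% lower. Sbds, which helps release the anti-association factor eIF6 from the large subunit, was at 416, 359 and 445 in VEC-null and 767, 778 and 663 in VEC-positive libraries (0.86, limma adjusted p = 0.000567). Tcof1, which links ribosomal RNA transcription to processing, was at 719, 609 and 579 against 395, 435 and 403 (-0.62, limma adjusted p = 0.00213), and Tsr1 and Nat10 fell by 0.52 and 0.50 on the log2 scale. Ncl and Nop58, at -0.19 and -0.42, did not pass. Of 15 genes for RNA polymerase I and its factors, 1 was higher, Ubtf (0.36), and 3 were lower, among them Taf1d (-0.55) and Polr1a (-0.37). These calls are 26.7% of the list, against the same 37.3% of all tested genes. Of 7 chaperones that guard single ribosomal proteins 1 was higher, Aamp (0.25), a call that held in 6 of 19 alternatives and turned to -0.06 at equal totals. Of 6 tested noncoding hosts of small nucleolar RNAs 1 was lower, Zfas1 (-0.45). These 2 lists had 14.3% and 16.7% called, both below the share of all tested genes.

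Regulators of ribosomal protein synthesis were read in the same way. Of 15 genes of mTORC1 and cap-dependent translation, 2 were higher, Rheb (0.45) and Rps6kb1 (0.32), and 3 were lower, Tsc1 (-0.49), Mtor (-0.34) and Eif4a1 (-0.31), while Larp1 (-0.01) and Eif4g1 (0.11) did not pass. These 5 calls are 33.3% of the list, against 37.3% of all tested genes. At equal totals 0 genes of the list were higher and 7 were lower, against 11.2% and 35.3% of all tested genes. Of 3 tested genes of the MYC family, Max was higher (0.38), and Myc was at 129, 114 and 116 in VEC-null and 146, 158 and 148 in VEC-positive libraries without passing (0.33, limma adjusted p = 0.0635). Of 12 targets of p53, 5 were higher and 7 did not pass in limma (41.7% called, against 37.3% of all tested genes in either direction and 20.9% higher). At equal totals 4 of the 12 were higher, against 11.2% of all tested genes. Cdkn1a, an inhibitor of the cell cycle, was at 68.9, 73.2 and 58.5 in VEC-null and 239, 197 and 196 in VEC-positive libraries (1.64, limma adjusted p = 0.000104). Eda2r (1.23), Zmat3 (0.82), Mdm2 (0.70) and Aen (0.70) also rose. Rps27l, the target of p53 within the ribosomal protein family, was at 76.5, 68.5 and 82.5 in VEC-null and 65.3, 69.2 and 76.7 in VEC-positive libraries and did not pass (-0.11, limma adjusted p = 0.638).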

How the data were processed

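Total RNA of 3 VEC-null and 3 VEC-positive libraries, grouped by their labels, was prepared with a stranded kit. Per the submitters' processing notes the authors used Trim Galore, TopHat2 2.1.1, mm10 and DESeq2 1.14. No source used here gives the counting program, its strand setting or its annotation. The signal values deposited by the authors are reads per gene over a size factor common to all genes of a library: 100% of values were whole reads within 0.01 of a read. Symbols of 23908 of 24080 genes came from GENCODE M21. Median depth was 11128657 reads.

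Genes with a value of 10 or more in 3 or more libraries were compared on log2(value + 1) by limma 3.58.1 under R 4.3.3, its mean-variance trend on, VEC-positive minus VEC-null, two-sided, with adjustment over all 14032 genes and a threshold of 0.05. Such fold changes understate changes of low genes. Paralog ratios used an exact permutation test. Copies were matched with blastn 2.17.0. The script was tested on simulated data for 13832 genes, with a spread set alike for all genes. There limma called 14.7% of changes of 0.5 on the log2 scale and 98.5% of 2-fold changes, and 3.42% of its calls were false. Far fewer genes were changed there than passed in these data. The share of small changes missed above is therefore not known, and some can have been missed. The alternatives were 18 planned (pseudocounts of 0.5 and 8, filters, scalings, models of the spread, a length and GC correction, recovered reads in edgeR 4.0.16 and in DESeq2 1.42.0, leaving out each library) and 1 added. Members and the 20 gene and marker lists were chosen with earlier results of these data known. Named were, per subunit, up to 8 largest rises and falls past the threshold, the 3 highest means, paralogs, stalk and Rpl5 and Rpl11, and, per list, up to 4 past the threshold with a mean of at least 50 and up to 2 that did not pass. Some genes that the rule draws are not reported here, and their points are left out of the plots that label each gene. Figures used matplotlib 3.10.9.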

Additional observations from a re-analysis of the deposited data

How the results depend on the processing

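With libraries scaled to equal totals, 1566 genes were higher and 4960 lower of all tested, the large subunit had 1 higher and 22 lower, and the small subunit 0 higher and 16 lower. Scaled to equal totals without the mitochondrial genome these were 2 and 11 for the large and 0 and 7 for the small subunit. Without the variance trend the large subunit had 2 higher and 2 lower and the small subunit 0 higher. The length and GC correction gave 1 higher in the small subunit, and adding copies gave 7 lower in the large and 6 lower in the small subunit. Leaving out 1 library at a time gave 2 to 10 higher and 2 to 8 lower in the large subunit, and 0 to 3 higher and 2 to 5 lower in the small subunit, with the upper value without VEC-null 3 in each case. The replicate block gave 2 higher in the large subunit. The deviations of same-numbered libraries correlated at 0.0763, -0.333 and -0.295, and those of differently numbered libraries at -0.225 to 0.39. No pairing by replicate number was seen, but 3 libraries per group are too few to exclude it. At equal totals Aamp went to -0.059. The difference between groups in the log2 ratio of Rpl36al to Rpl36a ranged from -0.06 to 0.073 without 1 library. This difference was above 0, at 0.073, 0.017 and 0.006, without VEC-null 3, VEC-positive 1 and VEC-positive 3. Apart from the scaling itself, the causes of these changes were not tested. Calls of Rpl9, Rpl12, Rpl17, Rps12 and Rps14 held in all 19 alternatives.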
